A study of Mus musculus with 12 samples.

Results

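Opposite-strand transcripts are annotated RNAs transcribed from the DNA strand opposite to a named gene, and their symbols are built from that gene's symbol followed by "os" and, in some cases, a digit. All symbols of this form whose stem was itself a gene symbol in the files were taken, which gave 233 transcripts of 23513 genes, each set beside the gene whose name it carries, here called its host. The 233 transcripts belonged to 202 hosts, since 23 hosts had more than 1.

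They were counted in single nucleus RNA sequencing (snRNAseq) of cortices from C57BL/6J mouse embryos, labelled embryonic day 14 and collected at E14.5. Pregnant dams had been injected intraperitoneally once a day, 6 times from E8.5 to E13.5, with saline or with 2.5 g/kg ethanol (EtOH, 25% v/v in saline). The saline group held 5 embryos, S1-1 and S1-2 from dam S1 and S2-1, S2-2 and S2-4 from dam S2. The EtOH group held 6 embryos, E1-1 and E1-2 from dam E1 and E2-1 to E2-4 from dam E2. Dams S1 and E1 formed library batch 1 and dams S2 and E2 formed batch 2, so that each group rested on 2 dams, littermates shared an injected mother, and dam and treatment could be told apart only in part. All animals were wild type, and the nuclei were sorted by the authors into 25 clusters after non-neuronal and thalamic nuclei had been left out.

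Antisense and divergent transcription is widespread in mammalian genomes. Many opposite-strand transcripts start close to the host's own promoter and run away from it, others lie wholly inside an intron of the host, and others run into its 3′ end. Most are long non-coding RNAs that stay in the nucleus, and a few, such as Dlx6os1 in the precursors of inhibitory interneurons, are established regulators or markers of a lineage. A nuclear library that captures poly(A) RNA also holds unspliced RNA. The authors counted with Cell Ranger at default parameters from a 3′ kit, which by default credits a read only to a gene on its own strand, but the strand setting was not spelled out. Values of all pairs that overlap rest on that setting. These include the 127 with overlapping exons and those where the transcript lies in host introns, which unspliced RNA also covers.

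The embryos differed in depth. Saline embryos held 44017566 to 83061737 UMIs (unique molecular identifiers, 1 per captured RNA molecule) and EtOH embryos 14078316 to 38034349, without overlap. One saline embryo, S2-4, stood apart from the other 4 in the transcripts described here. Its median of 6325 UMIs per nucleus was below the 8365 to 9051 of the other saline embryos and inside the EtOH range of 4071.5 to 6911. Counts of calls and the shares of UMIs are therefore given with and without S2-4, as are the fold changes of the transcripts described in most detail. S2-4 was picked out by its values for these same transcripts. Larger counts and fold changes without it follow from that choice and are not separate evidence. Counts of littermates differed by 4.33 to 12.3 chi-square units per gene within dams S1, E1 and E2 and by 48.7 to 89.7 within dam S2, so no embryo was a copy of another. The canonical markers of radial glial cells (RGC), intermediate progenitor cells (IPC), projection neurons (PN) and interneurons were all detected, and of the 50226 barcode sequences 314 occurred in more than 1 embryo.

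Of the 233 transcripts, 232 could be placed in the mouse genome (GRCm38, GENCODE M21), and all 232 lay on the strand opposite to their host. GENCODE classed 213 as antisense, 8 as lincRNA and 11 as protein-coding. The largest group, 110 transcripts, lay entirely within the host. Another 61 overlapped the host's 5′ end, 27 started beside it and ran away from it without overlap, 22 overlapped its 3′ end, 7 converged on it without overlap and 5 spanned it. Where the genes did not overlap, the gap was at most 15668 bp. Chd3os, the transcript named after the chromatin remodeler Chd3, had no entry in the annotation.

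The last 60 bases of 6 transcripts are shown because captured poly(A) RNA is read from this end. In capitals are the hexamers AATAAA and ATTAAA, the common polyadenylation signals, searched on the transcript's own strand in the last 50 bases. The first 4 are the transcripts within their host that carried a large number of UMIs and were higher in EtOH, the fifth lies within its host and was lower, and the last starts beside its host.
Sorbs2os: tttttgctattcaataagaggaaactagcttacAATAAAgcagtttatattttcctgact
Nrg3os: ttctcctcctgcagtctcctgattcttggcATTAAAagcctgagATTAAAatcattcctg
Plxna4os3: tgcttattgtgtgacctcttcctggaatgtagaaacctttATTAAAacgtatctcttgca
Rsf1os1: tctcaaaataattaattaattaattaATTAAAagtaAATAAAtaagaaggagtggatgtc
Nr6a1os: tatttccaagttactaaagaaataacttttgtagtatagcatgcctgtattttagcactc
Brip1os: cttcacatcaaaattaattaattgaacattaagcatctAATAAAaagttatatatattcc
At least 1 annotated transcript of 158 of the 232 placed members (68.1%) held such a hexamer, and 61.8% of those within their host did. Counted by transcript, 239 of the 450 transcripts of the members (53.1%) held one, against 5527 of 13653 (40.5%) among all annotated antisense and lincRNA transcripts with the members included. A hexamer in this window is a match of letters, and its use in these nuclei was not measured.

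Sorbs2os lies at chr8:45723325-45819297 on the minus strand, inside Sorbs2 at chr8:45507788-45827906, which encodes an adaptor protein of the actin cytoskeleton. Nrg3os, chr14:38898302-38958794 on the plus strand, lies inside Nrg3 (chr14:38368952-39473088), the gene of a neuregulin that binds the receptor ErbB4. Plxna4os3, chr6:32303829-32316614 on the plus strand, lies inside Plxna4 (chr6:32144268-32588192), a semaphorin receptor of growing axons. Rsf1os1, chr7:97598349-97645112 on the minus strand, lies inside Rsf1 (chr7:97579889-97692778), a chromatin remodeling factor. Nr6a1os, chr2:38823257-38852370 on the plus strand, lies inside Nr6a1 (chr2:38723370-38927688), an orphan nuclear receptor of early embryos. The exons of Nrg3os, Rsf1os1 and Nr6a1os overlapped no exon of the host, so these 3 are intronic to it, while those of Plxna4os3 and Sorbs2os overlapped host exons by 110 and 1051 bp.

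Brip1os, chr11:86201370-86304443 on the plus strand, is arranged differently. It starts 177 bp from the start of Brip1 (chr11:86058138-86201193, minus strand), a DNA helicase of double-strand break repair, and the pair share the region between them. The 250 bases before the start of Brip1 (RefSeq, GRCm38.p6, chr11:86201194-86201443, minus strand) are shown with the 74 bases that also lie within Brip1os in capitals.
Brip1 promoter: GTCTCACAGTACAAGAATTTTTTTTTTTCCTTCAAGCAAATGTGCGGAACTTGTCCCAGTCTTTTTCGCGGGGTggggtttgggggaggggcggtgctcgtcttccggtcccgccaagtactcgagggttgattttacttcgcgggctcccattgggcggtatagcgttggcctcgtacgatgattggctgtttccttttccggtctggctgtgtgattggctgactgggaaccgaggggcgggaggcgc

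The opposite-strand transcripts together took 0.201, 0.194, 0.219, 0.202 and 0.293% of all UMIs in S1-1, S1-2, S2-1, S2-2 and S2-4. In the EtOH embryos they took 0.263 to 0.289%. The means were 0.222% ± 0.0406 (SD, n = 5) and 0.273% ± 0.00888 (SD, n = 6). Saline and EtOH embryos overlapped only through S2-4, whose share was above that of every EtOH embryo.

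By arrangement of transcript and host, the 110 transcripts within their host took 0.0621, 0.0560, 0.0594 and 0.0793% in the first 4 saline embryos, 0.132% in S2-4 and 0.117 to 0.138% in the EtOH embryos. Those overlapping the host's 3′ end took 0.0122 to 0.0174% in the same 4, 0.0215% in S2-4 and 0.0195 to 0.0236% in EtOH. Shares of the other large groups overlapped, also with S2-4 set aside. Transcripts overlapping the 5′ end took 0.0331 to 0.0437% in saline and 0.0407 to 0.0453% in EtOH, and divergent ones without overlap 0.0238 to 0.0301% and 0.0258 to 0.0284%. With the same cluster weights in every embryo, however, those overlapping the 5′ end took 0.0350 to 0.0386% in the first 4 saline embryos, 0.0431% in S2-4 and 0.0428 to 0.0463% in EtOH, so that this group also overlapped only through S2-4. Divergent ones then took 0.0246 to 0.0269%, 0.0299% and 0.0265 to 0.0291% and still overlapped. The 202 hosts themselves took 2.78 to 2.98% in saline and 2.86 to 3.09% in EtOH.

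**Figure D1:**
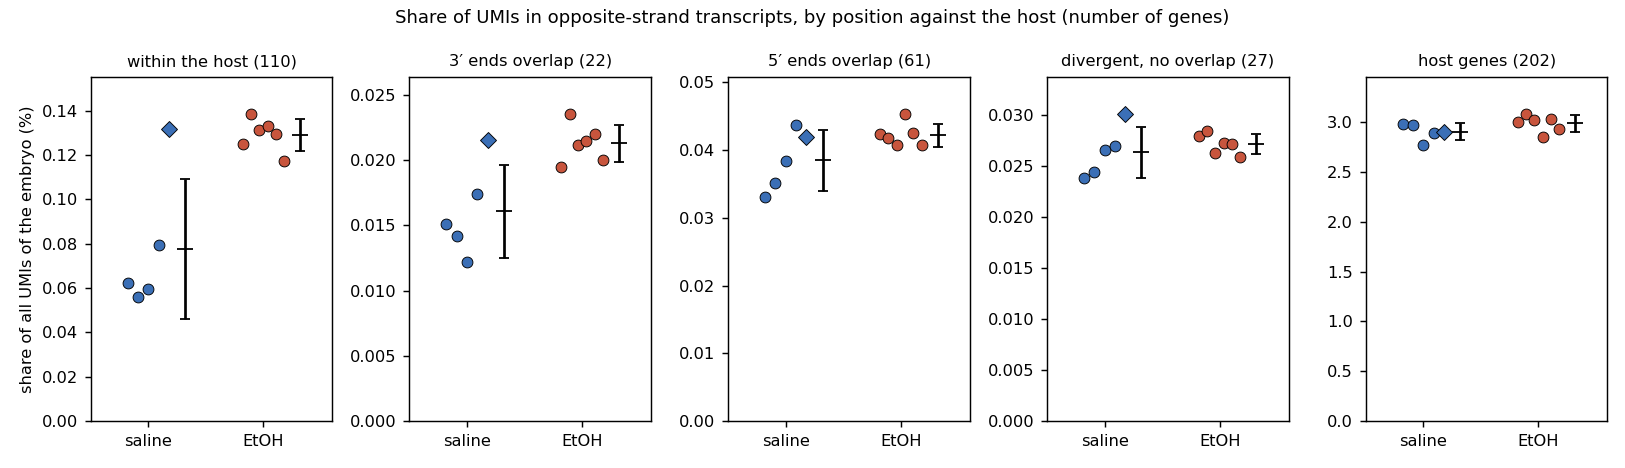
Share of all UMIs (percent, vertical axes) in each embryo for groups of opposite-strand transcripts and their hosts. Circles are embryos, the diamond is saline embryo S2-4, and bars give the mean ± SD. For transcripts within their host, the EtOH embryos sit between 0.117 and 0.138% beside S2-4 at 0.132%, above the other saline embryos at 0.0560 to 0.0793%.

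UMIs per nucleus and cell type makeup varied among the embryos. The shares were also taken with nuclei thinned to the same number of UMIs, and with the same cluster weights in every embryo. Each cluster was then weighted by its share of all nuclei. With each nucleus thinned to 2000 UMIs and 9 to 106 shallower nuclei per embryo left out, the transcripts within their host took 0.0553 to 0.0781% in the first 4 saline embryos, 0.132% in S2-4 and 0.118 to 0.139% in EtOH. With the same weight for each cluster in every embryo, the values were 0.0560 to 0.0771%, 0.131% and 0.117 to 0.134%. The number of nuclei and the total UMIs per embryo still differed after thinning. Thinning keeps the expected share of each gene within a nucleus and only evens the weight of nuclei. The thinned shares therefore cannot show whether depth played a part. Summed microglial markers, of which all 3 were detected, ran with these shares, at 14.4 to 31.5 CPM (UMIs scaled to a common total per embryo) in saline, with S2-4 highest, and 26.7 to 35.8 in EtOH, and their part in the result was not tested. They were picked from several marker lists after the values were seen. Endothelial markers, at 5.68 to 10.5 and 5.58 to 10.9 CPM, and pericyte markers, at 4.42 to 7.93 and 4.92 to 5.74, did not separate the groups. Meningeal fibroblast markers stood at 2.13 to 11.1 CPM in saline, with S2-4 at 2.26, and at 0.511 to 2.91 in EtOH.

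The same was seen in genes that carry no host name. Antisense genes outside the list that lay within a gene on the other strand numbered 1150, and took 0.425 to 0.559% in the first 4 saline embryos, 0.851% in S2-4 and 0.762 to 0.868% in EtOH. The 3119 lincRNA genes took 2.99 to 3.24% in those saline embryos, 3.58% in S2-4 and 3.43 to 3.79% in EtOH. In both sets S2-4 again lay with the EtOH embryos.

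In whole embryos, all nuclei of an embryo were added up, so that fewer cells of a type and less RNA per cell cannot be told apart, and the embryo was the replicate. Genes were tested with edgeR's quasi-likelihood test and Benjamini-Hochberg adjustment over all genes, and were called where the adjusted p was below 0.05 and the log2 fold change went beyond 0.32 in either direction. Of the 233 transcripts, 169 passed the filter on low counts. Among these, 46 were called higher in EtOH and 3 lower, with a median log2 fold change of 0.36. Over all 18138 genes tested, 8.55% were called higher and 3.55% lower, with a median of 0.01. Of the 185 hosts tested, 9 were called higher and 6 lower, with a median of -0.02.

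Of the transcripts within their host, 32 of 81 tested were called higher and 1 lower, with a median of 0.57. Those overlapping the 3′ end had 7 of 17 higher and 1 lower, with a median of 0.40. Of the transcripts at the host's 5′ end, 3 of 41 were higher and 1 lower where the ends overlapped (median 0.14) and 2 of 20 were higher where they did not (median -0.06), shares near that of all genes. The difference between the arrangements was not tested. The 3 were Uckl1os, Arf4os and Man2c1os and the 2 were Med9os and Bloc1s6os, named here after their values were seen. Of the other contained antisense genes, 272 of 785 were called higher and 4 lower, with a median of 0.58.

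Leaving out S2-4, which was picked by its values for these transcripts, raised these counts. Then 83 of 166 transcripts were called higher and 4 lower, with a median of 0.51, against 16.6% and 6.38% of all genes. Of those within their host, 59 of 79 were higher and 1 was lower, with a median of 0.82, while 8 of 40 with overlapping 5′ ends and 4 of 20 divergent ones were higher. The number of hosts called was 14 higher and 9 lower of 183. Leaving out S1-1, S1-2 or S2-1 in place of S2-4 lowered the number of transcripts called higher to 7, 6 or 8, against 1.53%, 0.848% and 1.35% of all genes, and leaving out S2-2 to 26, against 5.36%. Without E1-2, E2-1, E2-2 or E2-3 it was 16, 17, 14 or 19, against 3.38%, 3.17%, 3.01% and 4.13%.

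**Figure D2:**
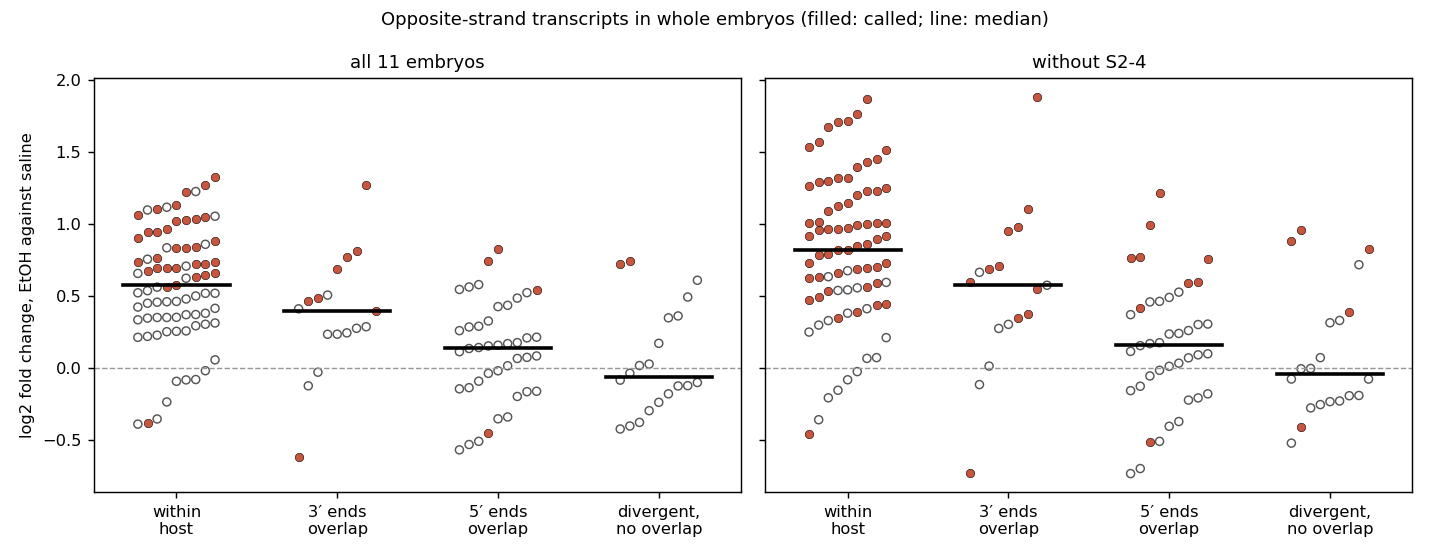
Log2 fold change of EtOH against saline, whole embryo (vertical axis), for each tested transcript of the 4 largest arrangements, with all 11 embryos and without S2-4. Points are transcripts, filled where called by edgeR, and lines mark medians, which with all embryos run from 0.57 for transcripts within their host to -0.06 for divergent ones without overlap.

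Without overlap between the groups, 5 transcripts were higher in every EtOH embryo than in every saline embryo and 1 was lower, against 1.98% and 2.16% of all genes. The 5 were Kirrel3os, Sox5os2, Rab11fip4os1, Macrod2os2 and Smc2os, and the 1 was Phtf1os. With S2-4 set aside, after its values were seen, the counts were 68 and 2, against 18.1% and 5.04% of all genes. S2-4 was the highest saline embryo for 116 of the 169 transcripts, 65 of the 81 within their host and 39.8% of all genes.

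Sorbs2os stood at 123, 96.7, 102 and 161 CPM in S1-1, S1-2, S2-1 and S2-2 and at 320.1 CPM in S2-4. In the EtOH embryos the lowest value was 278, the median 306 and the highest 330 CPM. S2-4 thus lay among the EtOH embryos, and the other saline embryos lay below all of them. The log2 fold change was 0.88 (SE 0.25, edgeR adjusted p = 0.033), and 1.253 (SE 0.11) without S2-4. Within batch 1 the log2 ratio of mean CPM, EtOH over saline, was 1.52 and within batch 2, which holds S2-4, 0.63. Sorbs2 itself had a mean of 1621 ± 96.7 CPM in saline (SD, n = 5) and 1498 ± 75.1 in EtOH (SD, n = 6), with a log2 fold change of -0.19 (edgeR adjusted p = 0.07).

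Nrg3os stood at 73.1, 63.6, 54.6, 65.5 and 149 CPM in the saline embryos, in the same order. In EtOH the lowest value was 142, the median 174 and the highest 202 CPM. Only S2-4 reached the EtOH embryos. The log2 fold change was 1.02 (SE 0.22, edgeR adjusted p = 0.018), and 1.32 without S2-4. Its host Nrg3 moved little, with a log2 fold change of 0.05 (SE 0.11, edgeR adjusted p = 0.77).

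In Plxna4os3 and Rsf1os1, too, S2-4 stood above the other saline embryos. Plxna4os3 stood at 39.5, 30.4, 28.7, 38.4 and 73.3 CPM in saline and between 60.4 and 77.7 in EtOH, with a median of 68.0 and a log2 fold change of 0.66 (edgeR adjusted p = 0.038). Rsf1os1 stood at 25.3, 21.4, 19.8, 29.5 and 63.1 CPM in saline and between 49.6 and 62.3 in EtOH, with a median of 55.4 and a log2 fold change of 0.76 (edgeR adjusted p = 0.047). In both, S2-4 was inside or above the EtOH range and the other saline embryos were below it. Without S2-4 the log2 fold changes were 0.92 and 1.13. Most of the 46 calls higher were lost without S1-1, S1-2 or S2-1, where only 7, 6 or 8 members were called higher. Counts summed per dam called 12. The calls of single transcripts here and below carry this limit.

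**Figure D3:**
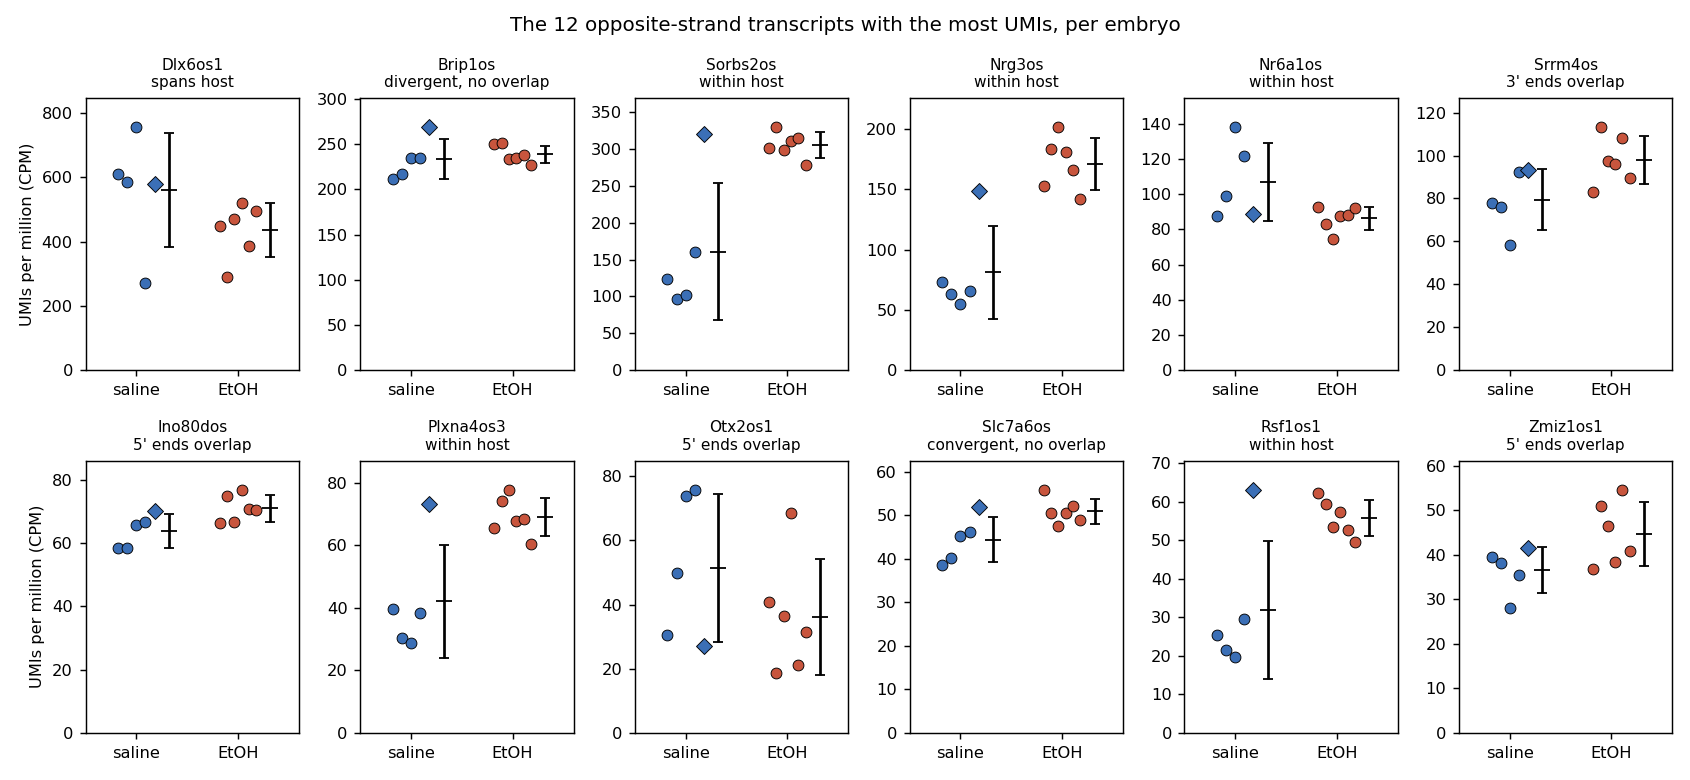
CPM in each embryo (vertical axes) for the 12 opposite-strand transcripts with the most UMIs, by group. Circles are embryos, the diamond is S2-4, and bars give the mean ± SD. Sorbs2os, Nrg3os, Plxna4os3 and Rsf1os1 show S2-4 at the level of the EtOH embryos, and Brip1os and Ino80dos show overlapping groups.

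Among less often counted transcripts within their host, those with the smallest adjusted p were higher in EtOH. Kirrel3os, in the gene of a cell adhesion molecule of synapses, stood at 0.94, 1.00, 0.92, 0.93 and 1.72 CPM in saline and at 1.92, 2.63 and 3.83 CPM (lowest, median and highest) in EtOH. The groups did not overlap, and the log2 fold change was 1.27 (SE 0.20, edgeR adjusted p = 0.012), and 1.45 without S2-4. Rab11fip4os1, in the gene of an effector of the recycling endosome, stood at 4.83, 4.04, 4.70, 6.47 and 8.64 CPM in saline and at 9.45, 10.9 and 11.7 CPM in EtOH, with a log2 fold change of 0.84 (edgeR adjusted p = 0.013), and 1.011 without S2-4. Rapgef4os1, in the gene of a cAMP-regulated exchange factor, rose by 1.05 on the log2 scale (1.32 without S2-4), Dtnbos, in the gene of beta-dystrobrevin, by 0.72, Lrp8os2, in the gene of a reelin receptor, by 0.84 and Dnm3os, in the gene of dynamin-3, by 0.67. Fbxl12os, which converges on the ubiquitin ligase subunit gene Fbxl12 across a gap of 846 bp, stood at 9.19, 8.06, 8.33, 9.68 and 20.99 CPM in saline and at 19.9, 22.2 and 22.9 CPM in EtOH, with a log2 fold change of 0.91 (edgeR adjusted p = 0.02), and 1.22 without S2-4.

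Sox5, a transcription factor of deep-layer projection neurons, held 4 opposite-strand transcripts, of which 3 were called higher. Sox5os2 stood at 2.77, 2.30, 2.65, 3.07 and 8.09 CPM in saline and at 8.35, 9.52 and 11.5 CPM in EtOH, with a log2 fold change of 1.33 (SE 0.28, edgeR adjusted p = 0.017), and 1.77 without S2-4. Sox5os4 and Sox5os3 had log2 fold changes of 1.03 and 0.97. Sox5os1, which was not called, stood at 0.25 to 0.52 CPM in the first 4 saline embryos, 2.04 in S2-4 and 1.29 to 1.91 in EtOH, and was called higher without S2-4. These 4 lie in 1 gene and are not independent of each other.

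The 3 transcripts called lower had different arrangements, and none of them was called with the same cluster weights in every embryo (limma adjusted p = 0.29, 0.056 and 0.076 in the order below) or with counts summed per dam (edgeR adjusted p = 0.068, 0.084 and 0.14). Nr6a1os, within its host, stood at 87.5, 99.1, 138, 122 and 88.6 CPM in saline and at 74.4, 87.8 and 92.4 CPM in EtOH, with a log2 fold change of -0.38 (SE 0.11, edgeR adjusted p = 0.032), and -0.46 without S2-4. The groups overlapped through S1-1 and S2-4, and the log2 ratio of mean CPM was -0.09 within batch 1 and -0.44 within batch 2. Prox2os, at the 3′ end of the homeobox gene Prox2, stood at 3.19, 3.23, 3.24, 3.36 and 2.17 CPM in saline and at 1.54, 2.07 and 2.84 CPM in EtOH, with a log2 fold change of -0.61 (edgeR adjusted p = 0.027), and -0.73 without S2-4. S2-4 again lay among the EtOH embryos, this time below the other saline embryos. Phtf1os, at the 5′ end of Phtf1, stood at 3.10 to 3.91 CPM in saline and 2.52 to 3.09 in EtOH, with a log2 fold change of -0.45 (edgeR adjusted p = 0.02), and -0.51 without S2-4. Of the 11 fits that left out an embryo, 3 called Nr6a1os lower, 4 called Prox2os lower and 9 called Phtf1os lower.

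Of the 12 members with the most UMIs, those at a host's 5′ end were not called in whole embryos. Brip1os stood at 211, 218, 235, 234 and 269 CPM in saline and at 227, 236 and 251 CPM in EtOH, with a log2 fold change of -0.04 (SE 0.05, edgeR adjusted p = 0.61). Ino80dos, beside the gene of an INO80 chromatin remodeling subunit, stood at 58.3 to 70.1 CPM in saline and 66.4 to 76.9 in EtOH, and Zmiz1os1, beside the gene of a transcriptional coactivator, at 28.1 to 41.5 and 36.9 to 54.6. Their log2 fold changes were 0.08 and 0.21. Srrm4os, at the 3′ end of the neuronal splicing regulator Srrm4, was not called either, with 58.1 to 93.1 CPM in saline and 83.3 to 113 in EtOH (edgeR adjusted p = 0.14). Slc7a6os, which is protein-coding and converges on an amino acid transporter gene, was not called with 38.7 to 51.9 and 47.7 to 55.9 CPM (edgeR adjusted p = 0.088).

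Dlx6os1 carried 236441 of the 1051334 UMIs of all members. It spans Dlx6, a homeobox gene of the interneuron lineage, at chr6:6820189-6871592 on the minus strand. It stood at 609, 584, 756, 272 and 579 CPM in saline and at 291, 458 and 519 CPM in EtOH, with a log2 fold change of -0.45 (SE 0.24, edgeR adjusted p = 0.18). The 2 lowest embryos, S2-2 at 272 and E1-2 at 291 CPM, were also those with 18.1% and 18.98% of their nuclei in interneuron clusters, where the others had 20.3 to 37.7%. Otx2os1, at the 5′ end of the forebrain homeobox gene Otx2 (chr14:48668708-48870683, plus strand), stood at 30.6, 49.8, 73.9, 75.8 and 27.0 CPM in saline and 18.8, 34.0 and 68.6 in EtOH (log2 fold change -0.57, edgeR adjusted p = 0.27). The clusters with most of its UMIs, 20 and 21, together held few nuclei, and S2-1 and S2-2 had the largest shares in them, 3.66% in cluster 20 and 4.64% in cluster 21. Without the UMIs of Dlx6os1, the remaining 232 transcripts took 0.136 to 0.175% in the first 4 saline embryos, 0.235% in S2-4 and 0.213 to 0.242% in EtOH.

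To ask whether a transcript and its host moved by different amounts, the log2 ratio of each pair was tested with limma over 3515 pairs of genes on opposite strands. Of the 164 member pairs tested, 65 had a higher ratio in EtOH and 9 a lower one, with a median difference of 0.30. Over all 3515 pairs, 29.4% were called higher and 9.87% lower, with a median of 0.16. In pairs outside the list the shorter gene was set over the longer one. A contained antisense gene thus stood over the gene around it, so these pairs are not a neutral background. Member pairs within the host had 46 of 80 higher and 2 lower (median 0.49), and those with overlapping 3′ ends 8 of 17 higher and 1 lower (median 0.35). Pairs with overlapping 5′ ends had 4 of 39 higher and 3 lower, and divergent pairs without overlap 5 of 19 higher and 2 lower (median -0.02). Without S2-4, 82 of 160 member pairs were higher and 12 lower, against 38.7% and 13.7% of all pairs.

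The ratio is given as UMIs of the transcript per 100 UMIs of its host, which follows a pair across embryos and does not compare the levels of different genes. Sorbs2os had 7.56, 6.02, 6.19 and 9.24 UMIs per 100 of Sorbs2 in the first 4 saline embryos, 21.7 in S2-4 and 18.02 to 21.98 in EtOH. The log2 difference was 1.19 (SE 0.26, limma adjusted p = 0.0083). Nrg3os had 1.92 to 2.60 UMIs per 100 of Nrg3 in the 4, 5.28 in S2-4 and 4.66 to 5.58 in EtOH, and Rsf1os1 had 7.67 to 11.4 per 100 of Rsf1, 23.8 and 19.7 to 25.2. S2-4 lay inside the EtOH range for these 3.

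Nr6a1os fell relative to its host, which was not called in whole embryos. It had 43.9, 50.4, 64.7 and 53.7 UMIs per 100 of Nr6a1 in the 4 saline embryos, 32.9 in S2-4 and 30.2 to 35.5 in EtOH (log2 difference -0.52, limma adjusted p = 0.013). Nr6a1 itself was at 197 to 226 CPM in the 4 saline embryos, 269 in S2-4 and 246 to 268 in EtOH. Dlx6os1 had 4016 to 5723 UMIs per 100 of Dlx6 in the 4 saline embryos, 3330 in S2-4 and 3281 to 3577 in EtOH (log2 difference -0.44, limma adjusted p = 0.021), while Dlx6 had a log2 fold change of 0.02. Prox2os had 21.1 to 32.6 UMIs per 100 of Prox2 in the 4, 10.97 in S2-4 and 7.92 to 15.7 in EtOH (log2 difference -0.97), with Prox2 itself called higher by 0.44. The Prox2 call held in 2 of the 11 fits that left out an embryo.

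In the pair of Brip1os the host was called and the transcript was not. Brip1 stood at 38.2, 39.5, 49.2, 47.0 and 47.7 CPM in saline and at 30.8, 34.5 and 42.8 CPM in EtOH, and fell by 0.39 on the log2 scale (SE 0.08, edgeR adjusted p = 0.015). With the same cluster weights its log2 fold change was -0.08 (limma adjusted p = 0.26), and per dam it was not called either (edgeR adjusted p = 0.059). Within PN, at lower levels, Brip1 was called lower, at 6.46 to 9.90 CPM in saline and 4.58 to 6.42 in EtOH (log2 fold change -0.69, edgeR adjusted p = 0.023). Brip1os per 100 UMIs of Brip1 was 478 to 563 in all 5 saline embryos and 583 to 787 in EtOH, without overlap (log2 difference 0.35, limma adjusted p = 0.02). Here S2-4, at 563, was below the EtOH embryos. In single clusters with at least 100 Brip1 UMIs, over all embryos, this ratio ran from 247 to 3658. EtOH was above saline without S2-4 in 7 of 9 clusters. The ratio was not tested with the same cluster weights in every embryo, and the part of cell makeup in it was not tested.

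**Figure D4:**
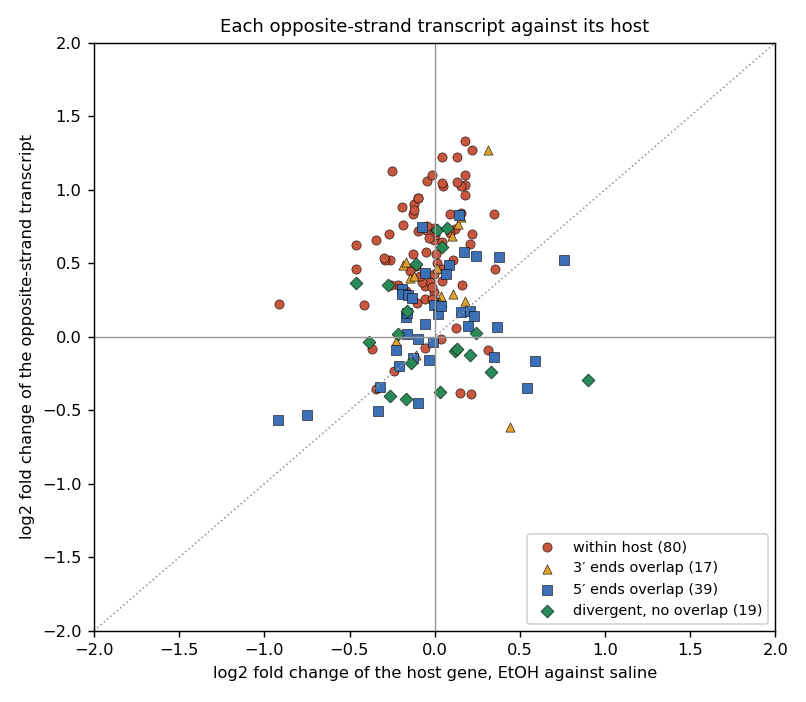
Log2 fold change of the opposite-strand transcript (vertical axis) against that of its host (horizontal axis), EtOH against saline in whole embryos, each point 1 pair, for the 4 largest arrangements, with the dotted line marking equal change. Transcripts within their host spread upwards around a median of 0.57, while the hosts stay around a median of -0.02.

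The hosts called in whole embryos had varied roles. Lower were Sox6, a transcription factor of progenitors and interneurons (log2 fold change -0.37), Etaa1, an activator of the replication stress kinase ATR (-0.46), Brip1, Pard3b, a cell polarity gene (-0.46), Parva, an adaptor at integrin adhesions (-0.42), and Cep112, named here after its value was seen (-0.35). None of these 6 was called with the same cluster weights in every embryo, where their log2 fold changes were -0.28 to -0.04 and those of Sox6 and Etaa1 were -0.13 and -0.28 (limma adjusted p = 0.018 and 0.019, within the fold limit). With counts summed per dam only Etaa1 was called. Sox6 had 1273, 1338, 1353, 1335 and 1261 CPM in saline and 995, 1062 and 1204 CPM in EtOH (lowest, median and highest), without overlap and with S2-4 the lowest saline embryo (SE 0.07, edgeR adjusted p = 0.014), and its log2 fold change without S2-4 was -0.40. Among the hosts called higher were Grin1, the obligatory subunit of NMDA receptors (0.36, called in 1 of the 11 fits that left out an embryo), Man2c1, a cytosolic mannosidase (0.38), Banf2 (0.42) and Dhrs13, a dehydrogenase family member (0.36). Of these pairs, Man2c1os was called higher beside Man2c1 (0.54), and Grin1os stood at 0.59 to 1.39 CPM in saline and 1.14 to 1.89 in EtOH without a call (edgeR adjusted p = 0.12). Within PN, edgeR called 3 of 164 hosts higher and 8 lower, against 4.17% and 2.36% of all genes. Sox6 had a log2 fold change of -1.08 there (179 to 319 CPM in saline, 100 to 166 in EtOH, edgeR adjusted p = 0.023). Etaa1 (-0.45), Brip1 (-0.69) and Pard3b (-0.61) were also among the 8, and Parva and Cep112 were not. Without S1-1, S1-2, S2-1, E2-2 or E2-3, 0 genes were called in PN. In single clusters, 7 of 3069 tests of hosts were called higher and 9 lower, against 0.442% and 0.35% of all tests. Grin1 rose by 0.74 in interneuron cluster 5 (edgeR adjusted p = 0.0078). Sox6 was lower in PN clusters 1, 4 and 9 (log2 fold change -1.34, -0.92 and -0.63). Pard3b was lower in PN clusters 1 and 16 (-1.06 and -1.04). Without S1-1, 0.0229% of all tests in clusters were called lower.

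Levels by cluster are given as a description, since the clusters were formed on the same counts. Dlx6os1 was highest in interneuron clusters 10 and 23, at 4077 ± 622 CPM (SD, n = 11) and 3803 ± 451 (SD, n = 10), which lie within their spread of each other, and at 25.5 CPM in cluster 24, a PN cluster, where it was lowest. Otx2os1 was highest in RGC clusters 20 and 21, at 1274 ± 297 (SD, n = 9) and 883 ± 224 (SD, n = 10) CPM, and had a median of 5.95 CPM over the 25 clusters. Lhx1os, which starts 125 bp from the LIM homeobox gene Lhx1, had 91.1 ± 30.4 CPM (SD, n = 11) in cluster 14, the Cajal-Retzius cells of layer I, and 7.46 ± 7.89 in the next cluster. Tmem132cos had 203 ± 100.9 CPM (SD, n = 10) in cluster 21 and 55.5 ± 22.6 in cluster 2, and Egfros, in the gene of the EGF receptor, had 7.26 ± 5.54 in cluster 3, both among RGC. In these 5 pairs the host was highest in the same cluster, except Otx2, which was highest in cluster 21.

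Most of the transcripts followed their host over the clusters. Among the 169 with at least 100 UMIs, the median Pearson correlation of log2(CPM + 1) over the 25 cluster means was 0.71, 41 were above 0.9 and 14 were below 0. The median was 0.85 within hosts, 0.64 for overlapping 3′ ends, 0.62 for overlapping 5′ ends and 0.42 for divergent pairs. For 59 of them, the transcript and its host were highest in the same cluster, 40 of these within hosts. Clusters share embryos, depth and composition, and no test was made.

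The highest correlations belonged to Nrg3os (1.00 with Nrg3), Srrm4os (0.99) and Plxna4os3 (0.99). Nrg3os ranged from 9.06 CPM in IPC cluster 6 to 355 ± 116 (SD, n = 11) in PN cluster 22, and Nrg3 from 407 to 8417 CPM in the same clusters. The lowest belonged to Mkln1os (-0.70 with Mkln1, which encodes the cytoskeletal mediator muskelin), Zmiz1os1 (-0.49) and Dhrs13os (-0.35), all at the host's 5′ end. Mkln1os was at 11.9 ± 5.99 and 11.1 ± 2.63 CPM in PN clusters 22 and 4 and at 2.12 ± 1.09 in RGC cluster 3, where Mkln1 was highest at 328 CPM. Zmiz1os1 was at 117 ± 36.8 CPM in cluster 22 and 18.8 ± 4.32 in IPC cluster 6, where Zmiz1 was highest at 857 CPM.

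**Figure D5:**
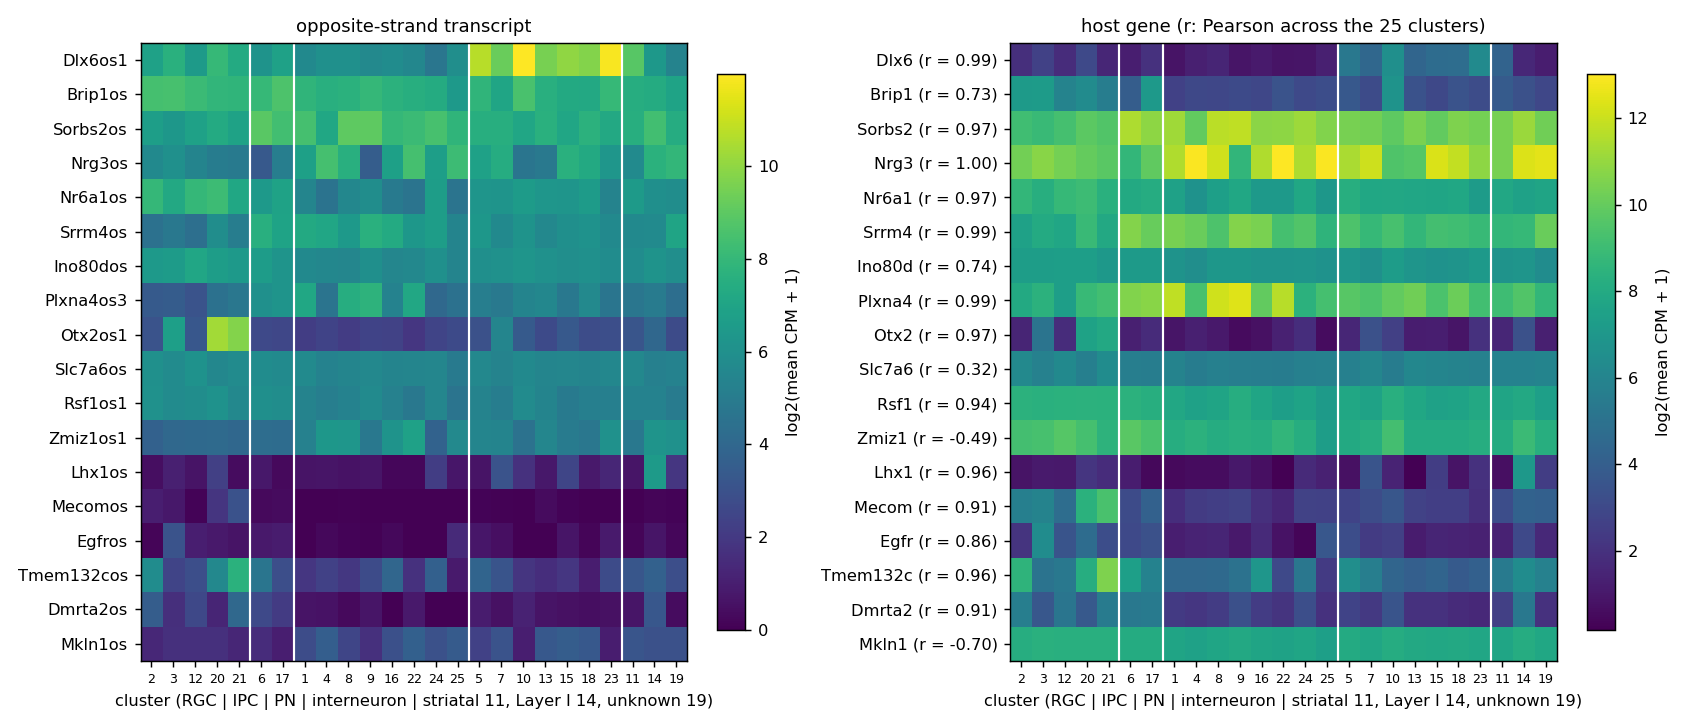
Mean CPM by cluster on a log2(CPM + 1) colour scale for opposite-strand transcripts and, in the second panel, their hosts, each panel with its own scale. Rows are pairs and columns the 25 clusters. Dlx6os1 peaks in interneuron cluster 10, Otx2os1 in cluster 20 and Lhx1os in cluster 14, each beside the same or a neighbouring peak of its host.

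The levels of the ratios to host varied with the cluster, and over all embryos Sorbs2os had 9.37 to 16.5 and Nrg3os 1.73 to 4.04 UMIs per 100 host UMIs in the single clusters. In each of the 25 clusters, Sorbs2os, Nrg3os, Plxna4os3 and Rsf1os1 had more UMIs per 100 host UMIs in the pooled EtOH embryos than in the pooled saline embryos without S2-4. S2-4 was set aside after its values for these transcripts were seen, and these ratios are not given against all saline embryos. The clusters come from the same embryos, so they repeat 1 comparison of embryos and are not independent. S2-4 was above the other saline embryos in 25 of 25 clusters for Sorbs2os and Nrg3os, 23 of 23 for Plxna4os3 and 22 of 22 for Rsf1os1, in clusters with at least 100 host UMIs. In RGC cluster 3, Sorbs2os had 6.71 UMIs per 100 of Sorbs2 in the 4 saline embryos, 23.6 in S2-4 and 25.6 in EtOH, and in PN cluster 8 it had 7.42, 19.8 and 20.3. Nr6a1os was above in 1 of 24 clusters. Dlx6os1 was above in 0 of 5.

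Tests within the major cell classes called fewer transcripts. In PN, 17 of 115 were higher and 1 lower, against 4.17% and 2.36% of all genes. In interneurons 13 of 114 were higher and 1 lower, against 3.6% and 1.23%. In RGC 5 of 112 were higher and 0 lower, against 2.31% and 1.48%, and in IPC 1 of 68 was higher and 0 lower, against 0.883% and 0.64%. The calls were made by edgeR, and at an unadjusted p under 0.05 in either direction 51 members in RGC and 37 in IPC passed, or 45.5% and 54.4%, against 29.8% and 23.7% of all genes. Median log2 fold changes of the transcripts within their host were 0.62 in PN, 0.65 in interneurons, 0.66 in RGC and 0.78 in IPC, and those of divergent ones without overlap 0.06, -0.16, 0.06 and 0.06. Without S2-4 the numbers higher were 59 in PN, 58 in interneurons, 44 in RGC and 35 in IPC, against 14.9%, 13.6%, 12.7% and 10.1% of all genes. The numbers lower were then 4, 1, 2 and 1, against 6.0%, 3.55%, 5.78% and 4.85%. Leaving out S1-1, S1-2, S2-1 or E2-2 in place of S2-4 gave 0 members called by edgeR in all 4 classes, with 28 to 52 members per class at an unadjusted p under 0.05. Those fits also called 0 of all genes, except 1 in IPC without S1-1, so that the 0 says nothing particular about the members.

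Kirrel3os and Nrg3os had the smallest adjusted p in interneurons. Kirrel3os stood at 0.65 to 2.07 CPM in saline and 2.75 to 5.18 in EtOH (log2 fold change 1.55, SE 0.27, edgeR adjusted p = 0.018), and Nrg3os at 59.0 to 119 and 132 to 189 CPM (0.99, SE 0.15, edgeR adjusted p = 0.018). In both, the groups did not overlap even with S2-4. Kirrel3os in PN also did not overlap, at 1.27 to 2.54 and 2.93 to 5.56 CPM. Dtnbos was the 1 transcript called in IPC, at 5.74 to 11.5 CPM in saline and 10.0 to 19.6 in EtOH (log2 fold change 0.86, edgeR adjusted p = 0.048). This call was lost with batch as a term (edgeR adjusted p = 0.058), by voom with the dam as a block (limma adjusted p = 0.06), with counts summed per dam (edgeR adjusted p = 0.13), after thinning (edgeR adjusted p = 0.17) and in 10 of the 11 fits that left out an embryo, all but the 1 without S2-4.

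The transcript called lower in PN was Dlx6os1, at 51.4 to 103 CPM in saline and 24.6 to 56.6 in EtOH (log2 fold change -1.02, edgeR adjusted p = 0.041). It was not called with batch as a term, by voom with the dam as a block, per dam, after thinning or without a filter (adjusted p = 0.052 to 0.16 by edgeR and limma), and of the 11 fits that left out an embryo only the 1 without S2-4 called it. These levels are far below the interneuron clusters, and how far they come from RNA outside the nucleus counted was not tested. In interneurons it was Phf2os1, named after the histone demethylase gene Phf2, at 6.85 to 8.66 CPM in saline and 4.87 to 6.35 in EtOH (log2 fold change -0.52, edgeR adjusted p = 0.033), without overlap. It was not called per dam (edgeR adjusted p = 0.096) or after thinning (edgeR adjusted p = 0.13), and 3 of the 11 fits that left out an embryo called it. Over the 25 clusters taken singly, 32 of 1010 tests of members were called higher, in 22 members with the 1 lower included, against 0.442% of all tests. The 1 lower, against 0.35%, was Nr6a1os in interneuron cluster 10, where 0.115% of all genes were called lower, at 103 to 146 CPM in saline and 59.5 to 100.2 in EtOH (log2 fold change -0.65, edgeR adjusted p = 0.048). That call was lost with batch as a term (edgeR adjusted p = 0.079), after thinning (edgeR adjusted p = 0.099) and in 9 of the 11 fits that left out an embryo. Without S2-4 the counts were 468 higher and 13 lower of 1005, against 6.17% and 2.61%.

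Single nuclei thinned to 2000 UMIs were searched for UMIs of both partners. Sorbs2 was found in 91.6% of the nuclei with a Sorbs2os UMI and in 85.0% of the other nuclei of the same clusters, Nrg3 in 97.5% against 84.8% and Plxna4 in 94.9% against 74.9%. Dlx6 was found in 8.47% of the nuclei with Dlx6os1 against 2.84%, and Otx2 in 26.2% of those with Otx2os1 against 10.5%. For Ino80d the shares were 22.2% and 22.4%, for Slc7a6 10.8% and 10.5% and for Zmiz1 47.3% and 45.9%. A nucleus without a UMI of a gene may still hold its RNA at this depth, and these shares were not tested.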

How the data were processed

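The authors aligned snRNAseq reads to mm10 with Cell Ranger at default parameters (the version is not given in the sources used here), filtered nuclei, removed non-neuronal, thalamic and low-transcript clusters, and deposited raw UMI counts per embryo and cluster, without normalization, for 50550 nuclei. Doublets were not called. The saline embryo S2-3 was not analysed here. The embryo was the replicate, and p-values measure the spread between embryos, of which littermates share a dam.

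Counts were summed per embryo, per class and per cluster (at least 10 nuclei per embryo and 2 embryos per group) and tested with edgeR 4.0.16 (TMM, filterByExpr, robust quasi-likelihood fit) on all genes. Ratios were tested with limma 3.58.1 on log2 of CPM + 0.5. DESeq2 1.42.0, R 4.3.3, Python 3.11.15, NumPy 2.4.6, SciPy 1.17.1, pandas 2.3.3 and matplotlib 3.10.9 were also used, and the tests were run first on simulated data. Positions came from GENCODE M21.

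Members and lists were chosen with earlier results of these data known. Named genes were the 12 members with the most UMIs, members and hosts called in any test (up to 10 of each by adjusted p), and members with the most uneven levels or the highest and lowest correlations by cluster. Alternatives were another normalization, test and filter, batch as a term, counts per dam, thinning, the same cluster weights in every embryo and each embryo left out.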

Additional observations from a re-analysis of the deposited data

Results flagged for a closer look

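Among 58 groups of embryos looked at for the named transcripts, their hosts and the shares, 6 had an embryo farther from the others than Dixon's 95% limit. Chance alone passes that limit in about 1 of 20 independent groups. These groups hold the same embryos and are not independent, so the 6 cannot be set against that rate. In 5 of the 6 the embryo was saline embryo S2-4. It stood at 320.1 CPM for Sorbs2os (next highest 160.8), 148.8 for Nrg3os (73.1), 73.31 for Plxna4os3 (39.5) and 63.05 for Rsf1os1 (29.5). Its share of all UMIs in opposite-strand transcripts was 0.2928% (next highest 0.219%). The other was the host Plxna4 in saline embryo S2-1, at 1211 CPM below the next lowest at 1356. Median UMIs per nucleus of S2-4, 6325, also lay within the EtOH range. The part of depth in these values was not tested, since thinning keeps the expected shares within a nucleus.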

How the results depend on the processing

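In whole embryos, 46 members were called higher, 32 of them within their host, against 8.55% of all genes. Counts summed per dam gave 12 and 6 (1.04% of all genes), the same cluster weights 62 members (13.4%), and with 1 embryo left out 6 to 83 and 5 to 59 (0.848 to 16.6%). The 3 members lower (3.55% of all genes) became 0 per dam (0.671%) and 0 with the same weights (0.722%), and 0 to 4 with 1 embryo left out (1.42 to 6.38%). Hosts called higher, 9, became 0 per dam and 15 with the same weights, and 0 to 14 with 1 embryo left out. Hosts lower, 6, became 1, 0 and 3 to 9. The shares of all genes in these fits are those given for the members. Log2 fold changes of Brip1os and Otx2os1 turned to 0.075 and 0.037 with the same cluster weights, neither called. These weights set no minimum of nuclei, so clusters 20 and 21 counted fully also in embryos with few such nuclei. E2-3 had 0.0426% of its nuclei in cluster 20 and E2-1 0.0789% in cluster 21. With 1 embryo left out, member pairs with a higher ratio, 65, numbered 44 to 82 (20.97 to 38.7% of all opposite-strand pairs) and those with a lower one, 9, numbered 5 to 12 (6.79 to 13.7%).

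Class and cluster counts moved under more settings, and the cause was not tested. In parentheses is the share of all genes with an adjusted p called in that fit. In RGC, 5 called (3.79%) became 25 by DESeq2 (9.50%), 2 without a filter (2.78%), 2 with batch as a term (2.16%), 3 after thinning (2.55%) and 23 by voom with the dam as a block (7.02%). In IPC, 1 (1.52%) became 15 (5.31%), 6 (2.28%), 0 (0%), 4 (1.498%) and 0 (0%) in that order, and 0 per dam (0.198%). In PN, 18 (6.53%) became 42 by DESeq2 (11.4%), 9 without a filter (3.61%), 9 with batch (5.09%) and 1 per dam (0.18%). In interneurons, 14 (4.83%) became 38 by DESeq2 (8.72%), 8 after thinning (3.32%) and 43 by voom (10.8%). Over the clusters, 33 (0.792%) became 145 by DESeq2 (2.40%), 193 without a filter (2.07%) and 20 with batch (0.419%). With 1 embryo left out the ranges were 0 to 46 in RGC, 0 to 36 in IPC, 0 to 63 in PN, 0 to 59 in interneurons and 0 to 481 over the clusters, the highest each time without S2-4 (18.4%, 14.99%, 20.9%, 17.1% and 8.78%).

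Of 604 alternative values for 32 named members, 527 kept their direction and call, 66 lost the call, 9 gained one and 2 changed direction. Members not called at first, such as Brip1os and Ino80dos, count among those kept by staying uncalled. Only called members could lose a call, so the 527 does not measure how stable the calls are. The shares kept their direction, with a difference of 0.0437 to 0.0683 points for all members and 0.0459 to 0.0649 for those within their host when 1 embryo was left out. No paired analysis was possible because embryo numbers count within dams, other than batch as a term, which pairs the dams of a batch and gave 44 members higher and 3 lower in whole embryos, against 7.95% and 3.35% of all genes. Members under 100 UMIs, 64 of 233, were almost all too shallow to test.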

Other observations

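Kcnq1ot1, the paternally expressed antisense RNA of the imprinted Kcnq1 domain, stood at 807, 882, 913 and 852 CPM in S1-1, S1-2, S2-1 and S2-2, 627 in S2-4 and 537 to 667 in EtOH, and fell by 0.49 on the log2 scale (SE 0.10, edgeR adjusted p = 0.015), and by 0.59 without S2-4. S2-4 again lay among the EtOH embryos, on the lower side. Dlx1as, antisense to the interneuron homeobox gene Dlx1, stood at 42.1 to 94.2 CPM in saline and 52.1 to 79.2 in EtOH (edgeR adjusted p = 0.48), lowest in S2-2 as Dlx6os1 was. Znrd1as stood at 1.26 to 1.84 CPM in saline and 1.201 to 1.53 in EtOH (edgeR adjusted p = 0.27).

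Chd3os, which had no entry in the annotation, stood at 5.30 to 6.01 CPM in saline and 4.76 to 7.26 in EtOH.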
